A study of Mus musculus with 12 samples.

Results

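The stria vascularis is the secretory epithelium of the cochlear lateral wall. It releases potassium into the endolymph and holds that fluid at a positive voltage, the endocochlear potential, which drives current through the hair cells. Marginal cells take up potassium from the strial interstitial space with the Na,K-ATPase and a sodium, potassium and chloride cotransporter, return the chloride through channels, and pass the potassium on to the endolymph through the channel formed by *Kcnq1* and *Kcne1*. Intermediate cells, which are pigmented melanocyte-like cells, supply the interstitial space through the inward rectifier channel made by *Kcnj10*.

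The account below is of 6 genes of this machinery along the cochlear spiral. They are *Kcnj10*, *Slc12a2*, *Bsnd*, *Atp1b1*, *Atp1b2* and *Esrrb*, chosen by name with earlier results of these data known. Their values were taken from every non-control probe of the array listed under those gene names. All 6 were on the array, with 50 probes of the 165865 used, and they stand among 19505 genes with a value. The arrays came from male C57BL/6 mice aged 6 weeks, with no treatment or engineered allele named in the labels, killed under ketamine and pentobarbital anesthesia. The cochlea of 4 mice was separated into the apical, the middle and the basal turn, and 4 arrays were hybridized for each turn, 12 in all, from 25 ng of total RNA each. Each sample held the lateral wall with the stria vascularis, the spiral ligament and the spiral prominence, and also the spiral ganglion and the organ of Corti, so strial RNA was measured in a mixture. In such bulk tissue, fewer cells of a type and less RNA per cell cannot be told apart. The arrays of a turn stand for different mice and the turns share mice, but the labels do not say which arrays of different turns belong to the same animal. The 4 arrays of a turn lay on the same slide and no slide held more than 1 turn, and therefore turn and slide cannot be told apart.

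Signals are fluorescence intensities scaled so that the 75th percentile of every array was the same. The gene signal is the mean of the log2 signals of its probes, given below on the linear scale, and fold changes between turns were taken from means of log2 signals over 4 arrays each. Before scaling the 75th percentile lay between 534 and 721.6, the share of gene spots well above background lay between 77.4% and 81.4%, and no spot was saturated. Arrays of the same turn correlated at between 0.991 and 0.995 over all genes, and the median SD of a gene was between 0.106 and 0.126 log2 units. The brightness of different probes depends on their sequence, so signals are compared between turns for the same gene and not between genes.

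Some members belong to families of similar genes, and their probes were compared with the probes for those relatives on the array. A probe of each Na,K-ATPase beta subunit among the members and 2 probes of *Esrrb* are shown 5′ to 3′. Capitals mark the longest run of bases shared with any probe for a relative on the array, which were the other beta subunits or the other estrogen-related receptors.
Atp1b1, position 810 of the transcript, chr1:166373336-166373395 (mm9, minus strand): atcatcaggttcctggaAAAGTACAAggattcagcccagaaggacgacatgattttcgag
Atp1b2, position 874, chr11:69416509-69416568 (mm9, minus strand): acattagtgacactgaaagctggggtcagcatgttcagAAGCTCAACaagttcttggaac
Esrrb, position 772, chr12:87811446-87811505 (mm9, plus strand): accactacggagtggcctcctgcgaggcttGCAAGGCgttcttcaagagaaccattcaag
Esrrb, position 889, chr12:87829554-87829613 (mm9, plus strand): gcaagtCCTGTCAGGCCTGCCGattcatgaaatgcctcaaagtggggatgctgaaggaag

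Over all 6 *Atp1b1* probes the longest run shared with a relative's probe was 10 bases, and over all 6 *Atp1b2* probes it was 9 bases, of 60. The *Esrrb* probe at position 889 lies in the stretch that codes for the DNA-binding domain, which is the most similar part of these receptors. It shared 16 bases in a row with an *Esrra* probe and matched 53 of 60 bases of the closest relative's probe when aligned. The probe at position 772, also in that stretch, matched at most 23 bases of a relative's probe. Whole transcripts of the relatives were not searched, so short matches do not show how far their RNA could add to a signal. Cross-hybridization was not tested for any probe. *Slc12a2* probes shared at most 20 bases in a row with those for *Slc12a1* or *Slc12a3*, and the single *Kcnj10* probe at most 8 with those for *Kcnj13*, *Kcnj15* or *Kcnj16*.

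All 6 genes had higher signal in the basal than in the apical turn, from 1.24-fold for *Esrrb* to 1.71-fold for *Kcnj10*, with a median difference of 0.49 log2 units. All 6 passed the test, where 21.6% of all genes were called higher in the base and 39.2% in either direction. Because the members were chosen with earlier results of these data known, their counts beside the shares of all genes are a description. For all 6 the 4 basal arrays lay above the 4 apical arrays, which held for 21.4% of all genes. The middle turn also lay above the apical turn for all 6, with a median of 0.38 log2 units, and all 6 passed, where 7.61% of all genes were called higher and 12% in either direction. No middle array overlapped an apical array for any of the 6, which held for 13.5% of all genes, and for 9.47% both the middle and the basal arrays lay above all apical arrays, as they did for all 6. Between the middle and basal turns only *Kcnj10* passed the test, where 9.23% of all genes were called higher and 20.9% in either direction. With scaling to the spike-in probes 5 members passed, where 6954 of all 19505 genes were called higher. *Kcnj10* was also the only member whose basal arrays all lay above its middle arrays, which 11.6% of all genes did. None of the 6 reached a 2-fold difference between turn means (2 did with the spike-in scaling), and 4.69% of all genes did so with a passed test over the 3 turns. The median difference of all genes was 0.04 log2 units for base against apex and 0.07 for middle against apex.

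**Figure D1:**
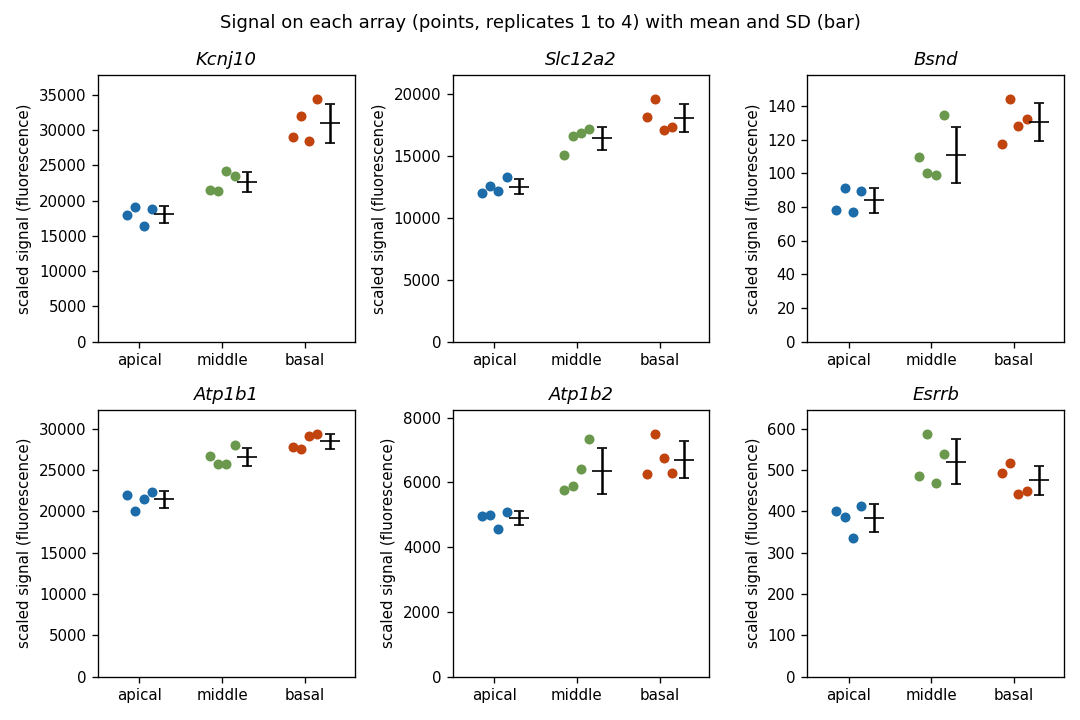
Scaled signal of each of the 6 genes on each of the 12 arrays (vertical axis, fluorescence, starting at 0) by cochlear turn. Points are arrays, the bar at the right of each group is the mean with its SD (n = 4), and no apical point reaches the level of a middle or basal point of the same gene.

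*Kcnj10* encodes the inward rectifier channel of the intermediate cells, through which the endocochlear potential is generated, and the same channel is also made by satellite glia and supporting cells. Its signal was 17934, 19140, 16430 and 18782 on the apical arrays, 21446, 21429, 24158 and 23508 on the middle arrays, and 29053, 31955, 28459 and 34398 on the basal arrays. The 3 turns did not overlap, and the order apex, middle, base held for every array. The apical mean was 18071 ± 1205 (SD, n = 4), the middle mean 22635 ± 1408 and the basal mean 30966 ± 2751. The basal signal was 1.71-fold the apical signal, a log2 difference of 0.78 (SE 0.08, limma adjusted p = 2.5e-05), and 1.37-fold the middle signal, a log2 difference of 0.45 (adjusted p = 0.0028). The difference between base and apex was 0.50 with quantile normalization and 1.19 with scaling to the spike-in probes. The middle turn exceeded the apex 1.25-fold (adjusted p = 0.022). That last call was lost when apical array 1, apical array 3 or middle array 4 was left out, with adjusted p between 0.053 and 0.064, and with quantile normalization (0.17 log2 units, adjusted p = 0.09). *Kcnj10* rested on a single probe, at chr1:174304062-174304121 (mm9, plus strand), far downstream in the transcript at position 5252.

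*Slc12a2* encodes the sodium, potassium and chloride cotransporter of the basolateral membrane of marginal cells. The apical arrays gave 12032, 12553, 12190 and 13329, the middle arrays 15078, 16616, 16826 and 17186, and the basal arrays 18144, 19598, 17079 and 17320. Every middle and basal array was above every apical array, and the middle and basal arrays overlapped. The means were 12526 ± 578 (SD, n = 4), 16426 ± 929 and 18035 ± 1137 in this order of turns. The base stood 1.44-fold above the apex, a log2 difference of 0.53 (SE 0.06, adjusted p = 8.9e-05), and the middle turn 1.31-fold (adjusted p = 0.0043). The base minus apex difference was 0.27 with quantile normalization (adjusted p = 0.0022) and 0.94 with spike-in scaling. Between base and middle the log2 difference was 0.13, with a 95% interval from -0.002 to 0.271 and an adjusted p of 0.15. The gene had 26 probes between 58039017 and 58106475 on the plus strand of chromosome 18 (mm9), and all 26 were well above background on all 12 arrays.

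*Bsnd* encodes barttin, an accessory subunit of chloride channels in marginal cells. Its signal was low, although its 4 probes were well above background on all 12 arrays, at 78.5, 91.24, 77.03 and 89.28 on the apical arrays, 109.6, 100.4, 98.81 and 134.8 on the middle arrays, and 117.3, 144.2, 128.4 and 132.4 on the basal arrays. The apical arrays were below all others, whereas middle array 4 lay within the basal range. The basal mean of 130.6 ± 11.1 (SD, n = 4) was 1.56-fold the apical mean of 84.01 ± 7.28, a log2 difference of 0.64 (SE 0.11, adjusted p = 0.00073). It was 0.39 with normexp background correction (adjusted p = 0.001) and 1.05 with spike-in scaling. The middle mean was 110.9 ± 16.6, and its difference from the apex of 0.39 log2 units passed with an adjusted p of 0.036. This middle call did not hold without apical array 1, 2 or 3 or without middle array 1 or 4, with adjusted p between 0.06 and 0.09. Nor did it hold with the median of the probes (adjusted p = 0.095) or with only the arrays of the 2 turns in the fit (adjusted p = 0.065). Between base and middle the difference was 0.24 log2 units (95% interval 0.011 to 0.475, adjusted p = 0.13), and it passed when middle array 4 was left out (adjusted p = 0.023). The 4 probes lie between 106156065 and 106164529 on the minus strand of chromosome 4 (mm9).

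*Atp1b1* and *Atp1b2* encode beta subunits of the Na,K-ATPase, which carry the pump to the membrane and shape its affinity for potassium. *Atp1b1* gave 22034, 20052, 21486 and 22291 on the apical arrays, 26736, 25772, 25772 and 28000 on the middle arrays, and 27778, 27610, 29115 and 29389 on the basal arrays. *Atp1b2* gave 4973, 4982, 4574 and 5080 apically, 5754, 5903, 6414 and 7341 on the middle arrays, and 6267, 7499, 6742 and 6287 basally. For both genes the apical arrays lay below all others and the middle and basal arrays overlapped. The base exceeded the apex by 0.41 log2 units for *Atp1b1* (1.33-fold, SE 0.05, adjusted p = 0.00012). For *Atp1b2* it did so by 0.45 (1.36-fold, SE 0.09, adjusted p = 0.0017). With quantile normalization these were 0.14 for *Atp1b1* (adjusted p = 0.034) and 0.25 for *Atp1b2* (adjusted p = 0.022), and with spike-in scaling 0.83 and 0.87. The middle turn was higher than the apex by 0.31 log2 units for *Atp1b1* (adjusted p = 0.0049) and by 0.37 for *Atp1b2* (adjusted p = 0.02). The latter fell short without apical array 2 or 3, at adjusted p of 0.053 and 0.056. Neither gene passed between base and middle, with intervals of -0.012 to 0.212 for *Atp1b1* and -0.108 to 0.266 for *Atp1b2*. The probes of *Atp1b1* span 166368263 to 166387951 on chromosome 1 and those of *Atp1b2* span 69413253 to 69419043 on chromosome 11, both on the minus strand (mm9).

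Because both beta subunits were read on the same array, their log2 difference does not depend on a scaling factor of the array. From apex to base the difference *Atp1b2* minus *Atp1b1* changed by 0.04 log2 units (p = 0.657, exact two-sided permutation test over 70 splits of 4 against 4 arrays). From apex to middle it changed by 0.06 (exact permutation p = 0.371), and from middle to base by -0.02 (exact permutation p = 0.886). Adjusted over the 3 comparisons all p-values were 0.886, and the smallest p this design allows is 0.0286. The SD of the difference between arrays of a turn was 0.092 for the apical, 0.126 for the middle and 0.148 for the basal arrays, so changes in the balance of the subunits of that size would not have been resolved.

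*Esrrb* encodes estrogen-related receptor beta, a nuclear receptor of marginal cells that controls genes of ion transport, and the gene is a cause of recessive deafness. It gave 401.6, 385.7, 335 and 412.5 on the apical arrays, 485.2, 587.7, 468.6 and 539.7 on the middle arrays, and 492.2, 516.6, 443 and 450.4 on the basal arrays. All apical arrays lay below all others, and here the highest mean (other than with spike-in scaling, where the base was higher), 520.3 ± 54.3 (SD, n = 4), was that of the middle turn, against 475.6 ± 34.9 in the base and 383.7 ± 34.3 in the apex. Middle and base overlapped, with a log2 difference of -0.13 for base minus middle (95% interval -0.325 to 0.072, adjusted p = 0.33). The middle turn stood 0.44 log2 units above the apex (adjusted p = 0.013) and the base 0.31 (1.24-fold, SE 0.09, adjusted p = 0.017). With spike-in scaling the base stood 0.73 above the apex. The basal call was lost when basal array 2 was left out (adjusted p = 0.054). It was also lost when the median of the probes replaced their mean (0.23 log2 units, adjusted p = 0.14). The middle call was lost with the median of the probes as well (0.36 log2 units, adjusted p = 0.074).

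**Figure D2:**
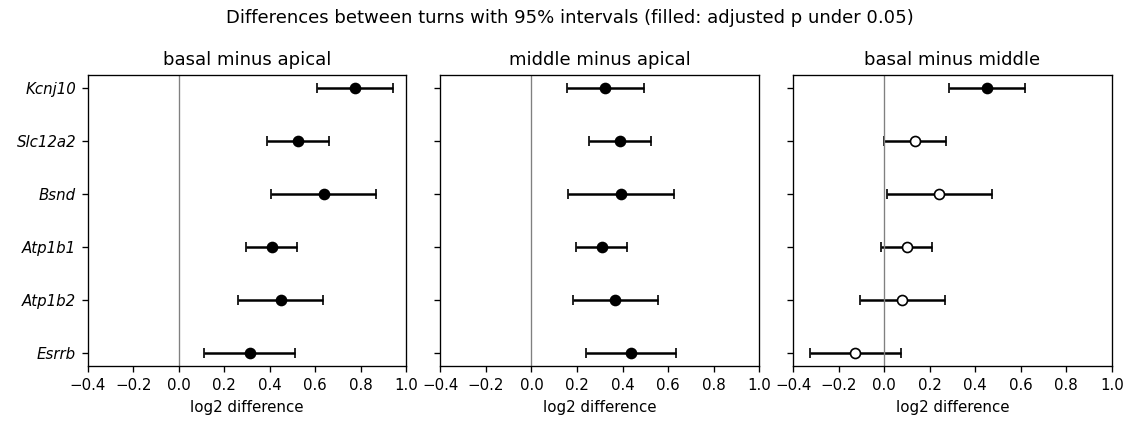
Log2 differences of the 6 genes between turns (horizontal axis) with their 95% intervals, in 3 panels for base minus apex, middle minus apex and base minus middle; filled points passed limma's test at the adjusted threshold. All points of the first 2 panels are filled, and only *Kcnj10*, at 0.45, is filled in the last. With scaling to the spike-in probes 5 of the 6 were called higher there, as were 6954 of all 19505 genes.

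The probes of each gene were then examined singly. All 50 probes had a positive difference between base and apex, and 44 were called higher in the base after adjustment over all probes, where 16.4% of all probes were. The probes of a gene read the same RNA and are not independent of each other. All 26 *Slc12a2* probes were called, with differences from 0.44 to 0.72 log2 units, and so were all 6 of *Atp1b1* (0.35 to 0.46) and all 6 of *Atp1b2* (0.35 to 0.64). Within *Atp1b2* the probe nearest the 3′ end, at position 2898, had the highest difference, 0.64, and the other 5 lay between 0.35 and 0.45. Of the 4 *Bsnd* probes, 2 passed, at 0.79 and 0.76, and the others stood at 0.51 (adjusted p = 0.053) and 0.49 (adjusted p = 0.051). The *Bsnd* probe at position 319 rose from 36.37 in the apex to 62.78 in the base, and the 3′ probe at position 2652 from 885.3 to 1499.

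*Esrrb* was the member whose probes were the least alike, with 3 of 7 called and differences from 0.04 to 0.65 log2 units. The 3′ probe at position 3755 gave 0.65 (SE 0.12, adjusted p = 0.0026), with signals of 2735, 4272 and 4280 in apex, middle and base. The probe at position 772 gave 0.35 (adjusted p = 0.064), and the probe at position 889, which resembles *Esrra*, gave 0.23 (adjusted p = 0.17). The most upstream probe, at chr12:87702332-87702391, was not well above background on any array. The file lists this probe for 1 of the RefSeq transcripts of *Esrrb*, and the other 6 probes for both, and the GRCm38.p6 annotation of RefSeq places the 2 start sites of the gene 60527 bases apart. With only the probes well above background the call for *Esrrb* held.

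**Figure D3:**
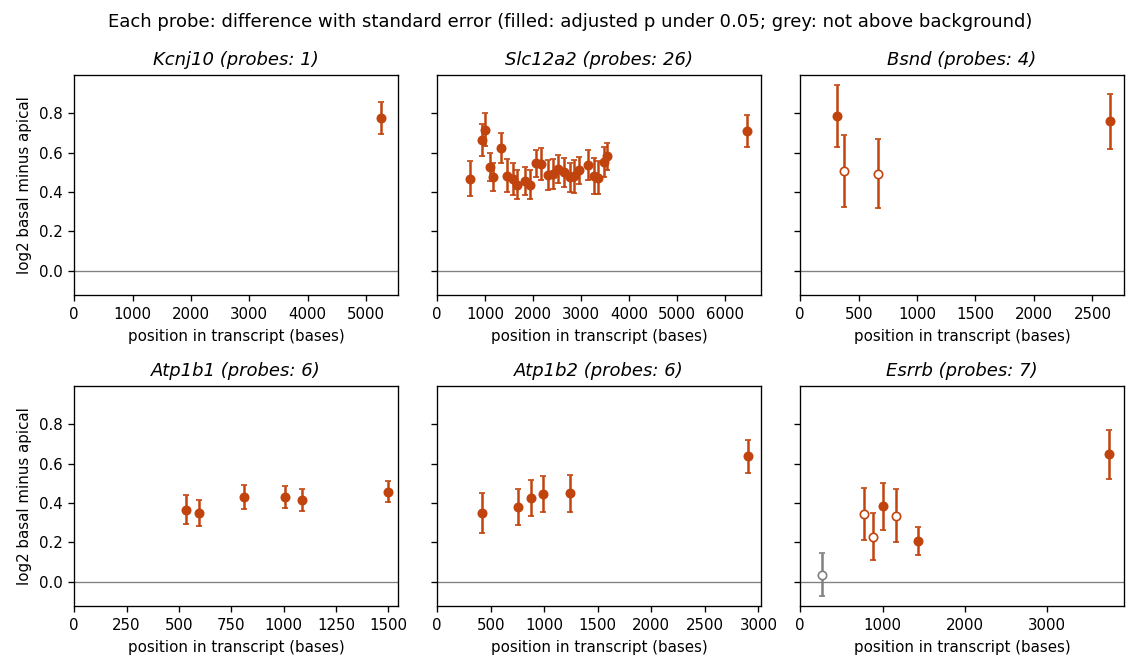
Log2 difference between the basal and apical turns for each probe (vertical axis, with standard error) against its position in the transcript (horizontal axis, bases), in a panel for each gene; filled points were called over all probes and the grey point was not above background. All 50 points lie above 0, and the 3′ probes of *Atp1b1*, *Atp1b2* and *Esrrb* are the highest of their genes. Those of *Slc12a2* and *Bsnd* lie next below the highest, and the single *Kcnj10* probe is also far downstream.

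Estrogen-related receptors bind the half-site AAGGTCA. The letters were searched on both strands in windows from 250 bases before to 50 after the start sites that RefSeq gives on GRCm38.p6. Promoters were matched for 3 members, *Kcnj10*, *Atp1b1* and *Esrrb*, which had 4 windows in all. The letters were in none of the 4, against 4.72% of 32851 promoters of the same length. At that share no match is the likely count in any 4 windows, so the absence does not tell whether the receptor acts on the members.

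The other genes of potassium secretion and circulation were read from lists of 28 genes, of which 26 were on the array under the listed names. Between base and apex 11 were called higher, 5 lower and 10 not called, with a median of 0.27 log2 units, where 21.6% of all genes were called higher and 17.6% lower. In middle against apex the counts were 6 higher and 2 lower, beside 7.61% and 4.42% of all genes, and in base against middle 8 higher and 6 lower, beside 9.23% and 11.6%. Under every scaling tried, the genes called between base and apex kept their sign, except *Stk39* with scaling to the spike-in probes (0.11). That scaling called 18 of the 26 higher in the base and 2 lower, where 13393 of all 19505 genes were called higher and 917 lower.

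Among the channels and cotransporters, 2 of 5 were higher in the base and 1 was lower. *Kcnq1*, the pore of the apical potassium channel of marginal cells, rose from 519.4 ± 48.4 (SD, n = 4) in the apex to 760 ± 85.9 in the base, a difference of 0.55 log2 units (adjusted p = 0.0042). Its subunit *Kcne1*, read by a single dim probe, differed by 0.36 and did not pass (adjusted p = 0.21). *Kcnj16*, whose product pairs with that of *Kcnj10* in several tissues, rose from 13566 ± 1997 to 21503 ± 2033 (0.67, adjusted p = 0.00062), read by a single probe. *Kcnj13*, another inward rectifier, stood 0.62 higher in the middle than the apical turn (adjusted p = 0.04), and gave 2785 ± 689 on the basal against 2717 ± 411 on the apical arrays. *Slc12a7*, a potassium and chloride cotransporter, was 1.65-fold lower in the base (-0.72, adjusted p = 5.3e-05).

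Of the other Na,K-ATPase genes read here, the beta subunit *Atp1b3* was 2.1-fold higher in the base (1.07, adjusted p = 5.7e-06), with signals of 7263 ± 747 (SD, n = 4) on the apical, 9091 ± 814 on the middle and 15213 ± 781 on the basal arrays. The dim *Atp1b4* did not pass (0.28, adjusted p = 0.056). FXYD proteins regulate the pump, and 3 of 7 were higher in the base. *Fxyd6* differed by 1.12 (adjusted p = 2.9e-07), *Fxyd3* by 0.84 (adjusted p = 1.6e-05) and *Fxyd5* by 0.47 (adjusted p = 0.0029), whereas *Fxyd1* was lower (-0.49, adjusted p = 0.00068). *Fxyd2* was lower in the middle than the apical turn (-0.48, adjusted p = 0.044) and did not pass between base and apex (-0.07).

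Of 5 kinases that phosphorylate and activate the product of *Slc12a2*, or act upstream of those that do, 1 was called lower in the base and none higher. *Stk39*, which encodes the kinase SPAK, was 1.24-fold lower in the base (-0.31, adjusted p = 0.0012), the exception to the scalings named above. *Oxsr1* (-0.11), *Wnk1* (-0.004), *Wnk2* (0.27) and *Wnk4* (-0.16) did not pass. With spike-in scaling 3 of the 5 were called higher and none lower, where 13393 of all 19505 genes were called higher and 917 lower. The relatives of *Esrrb* went opposite ways. *Esrra* rose from 785.7 ± 25.9 to 1088 ± 43 and 1254 ± 43.8 along the turns (base minus apex 0.68 or 1.6-fold, adjusted p = 2.8e-06), and *Esrrg* was 2.3-fold lower in the base than in the apex (-1.20, adjusted p = 0.003). Of the junction genes of the lateral wall, 4 of 5 were higher in the base. These were the connexins *Gjb2* (0.53, adjusted p = 0.00049), *Gjb6* (0.77, adjusted p = 3.2e-05) and *Gja1* (0.56, adjusted p = 0.0072), and *Cldn11* (0.37, adjusted p = 0.047), the claudin of strial basal cells, whose call was lost with quantile normalization (0.18, adjusted p = 0.28). *Gjb2* and *Gjb6* were each read by 1 probe. Of the 2 probes of the dim *Gja1*, 1 was well above background on all apical arrays and 2 on all basal arrays. *Tjp1*, of tight junctions in general, was lower (-0.52, adjusted p = 3.1e-05).

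**Figure D4:**
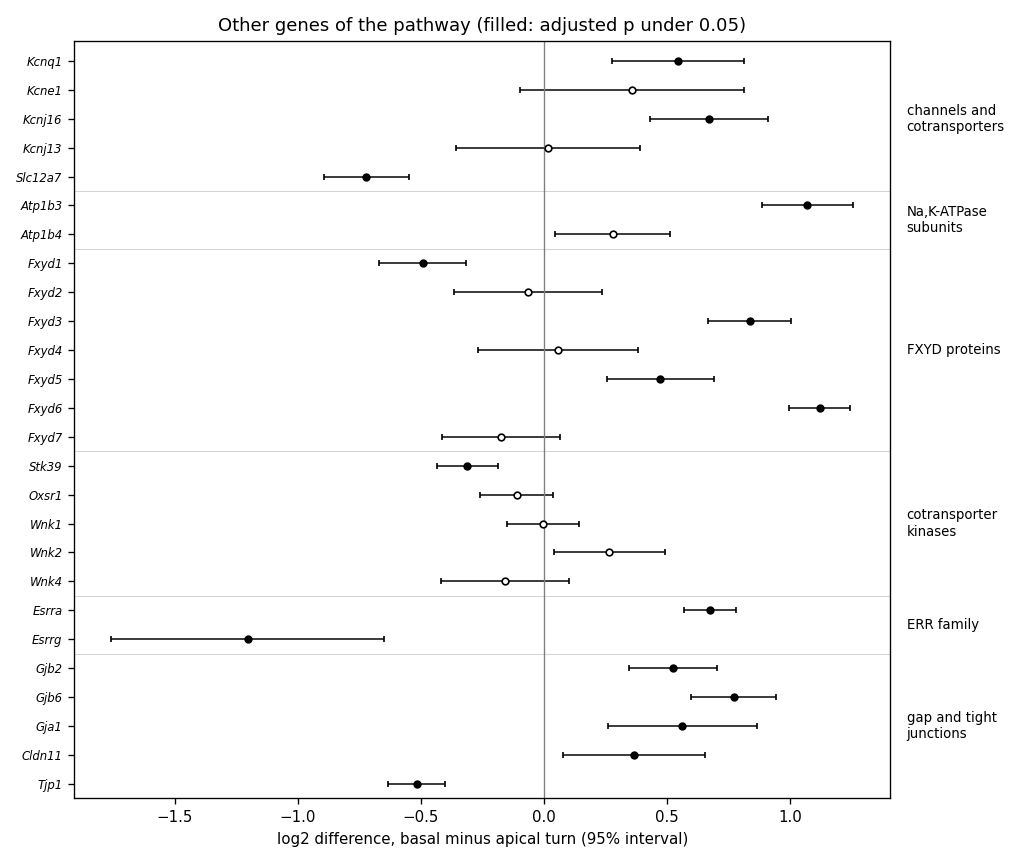
Log2 difference between the basal and apical turns (horizontal axis) of 26 other genes of potassium secretion and circulation with 95% intervals, grouped by role; filled points passed limma's test. The plot shows 11 filled points to the right of 0 and 5 to the left, with *Esrrg* the farthest to the left.

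Markers of the cell types in the dissected tissue were read on the same arrays, and each had at least 1 probe well above background in every turn. Signals summed over a list follow its brightest genes, such as *Dct* and *Gsta4* among the intermediate cell markers, and are given as a description beside the counts. Of 5 marginal cell markers, 3 of which are also in the lists above, 2 were higher in the base and none lower, with a median of 0.36 log2 units and a summed signal of 1727 to 1981 on the apical, 2009 to 2504 on the middle and 2177 to 2485 on the basal arrays. With quantile normalization 3 of these 5 were higher, with median scaling 4 and with spike-in scaling 5. Of all 19505 genes, 4996, 6283 and 13393 were called higher in the base under these scalings in turn. Of 9 intermediate cell markers 6 were higher and 1, *Cd44*, lower, with a median of 0.61 and a summed signal of 49948 to 56481 on the apical, 64903 to 92851 on the middle and 71287 to 93801 on the basal arrays. The pigment genes *Mlana* (1.04, adjusted p = 0.00033) and *Tyr* (0.82, adjusted p = 0.00042) were among these. Of 4 basal cell markers, 2 were higher and 2 lower, with sums of 8265 to 9516 apically and 8573 to 10322 basally. *Cldn11*, which was higher, and *Tjp1*, which was lower, are also among the junction genes above, and *Tjp1* is not specific to basal cells. All 5 fibrocyte markers of the spiral ligament were higher (4 with quantile normalization), *Otos* by 1.28 (adjusted p = 5.7e-07), and their summed signal went from 264761 to 288306 in the apex up to 518985 to 582830 in the base. For these lateral wall cells the part of their share of the tissue in the members' differences was not tested.

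Most markers of the organ of Corti and the ganglion were lower in the base. All 8 hair cell markers were lower in the base, with a median of -1.82 log2 units and a summed signal of 13206 to 17578 in the apex against 2838 to 5230 in the base. Of 6 neuron markers 5 were lower, with a summed signal of 24437 to 31941 in the apex against 4481 to 20065 in the base, and of 4 supporting cell markers 3 were lower although their summed signal was 2097 to 2278 in the apex and 2078 to 2308 in the base. Of 6 glial markers 5 were lower (median -0.73), with a summed signal of 9395 to 10145 in the apex and 4883 to 8659 in the base. With spike-in scaling none of the glial markers was lower and 1 was higher, where 917 of all 19505 genes were called lower and 13393 higher. *Esrrg*, which is in none of these marker lists, was also lower in the base, and its cell source was not tested. Between middle and apex, where 7.61% of all genes were called higher and 4.42% lower, 4 of 8 hair cell markers were lower and 1 of 6 neuron markers was higher. None of the glial markers passed. Of 5 marginal markers 3 were higher, and of 9 intermediate markers 5 were higher and 1 lower. Of 5 fibrocyte markers 2 were higher. Of 4 basal cell markers 2 were lower, as were 2 of 4 root and spindle cell markers. Of the 4 root and spindle cell markers 1, *Epyc*, was lower in the base, and their summed signal went from 40304 to 49301 in the apex down to 17295 to 19534 in the base. That sum follows *Epyc*, the brightest of the 4 (mean 39198 apically and 11366 basally), and the other 3 did not pass. Of the 5 bone markers 1 was higher (918 to 3762 in sum apically, 1849 to 2395 basally). Neither of the 2 blood markers passed (21302 to 60011 apically, 28469 to 75275 basally). The part of these changes in the members' differences was not tested either.

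**Figure D5:**
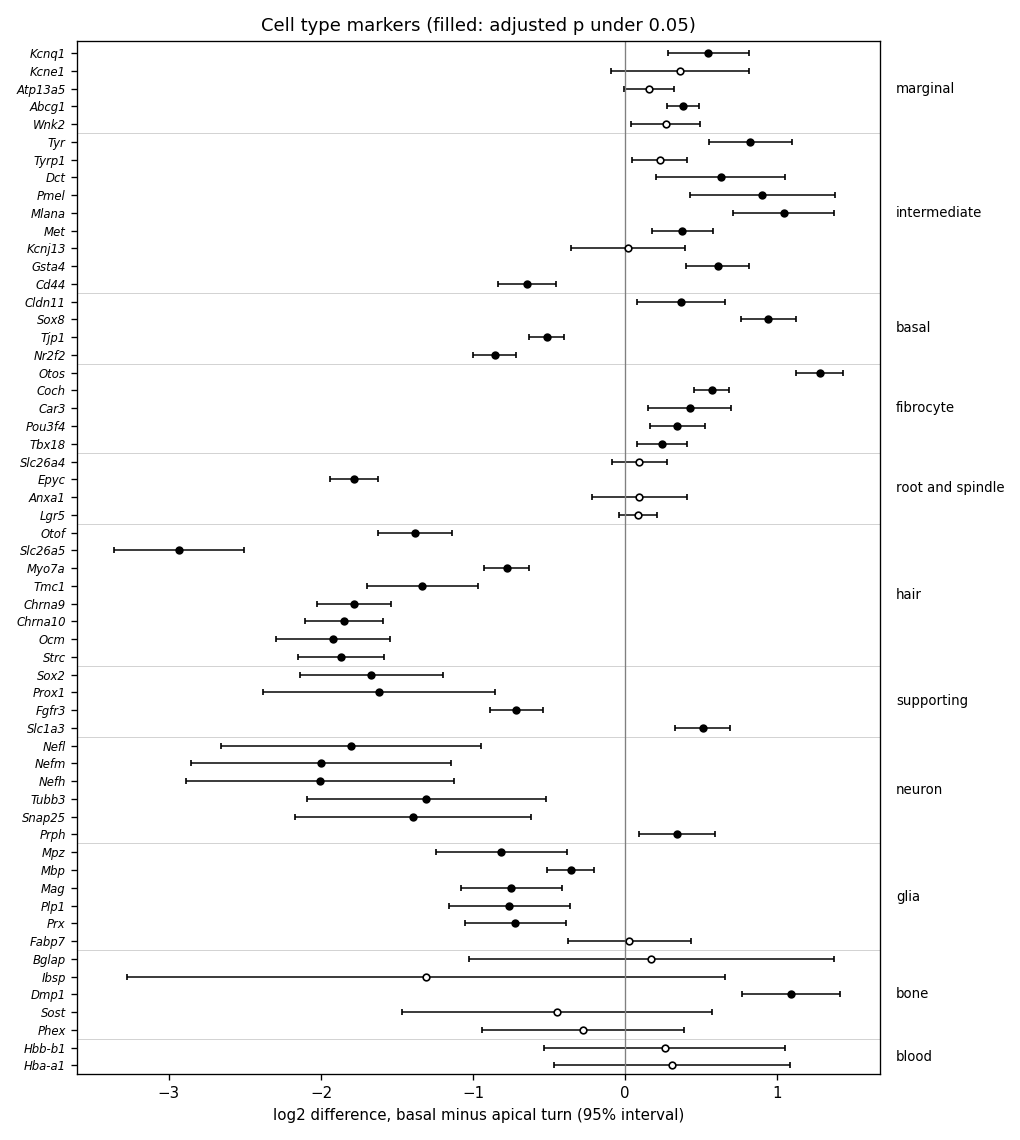
Log2 difference between the basal and apical turns (horizontal axis) with 95% intervals for marker genes of 11 cell types, named at the right; filled points passed limma's test. Hair cell markers all lie to the left of 0 and fibrocyte markers all to the right, on the side of the 6 members.

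The size of the members' differences depended on how arrays were brought to a common scale. The median difference of all genes between base and apex was 0.04 log2 units with the 75th percentile, 0.08 with quantile normalization, 0.15 with scaling to the median and 0.45 with scaling to the spike-in probes. The 75th percentile, the median and the spike-in probes each multiply a whole array by a single factor and so leave the members' place among all genes as it is, and the median of the members lay 0.45 above that of all genes with each. Quantile normalization can move that place, and with it the median of the members lay 0.20 above. All 6 lay above the all-gene median with the 75th percentile and with quantile normalization, in base against apex and in middle against apex. In base against middle 5 of 6 lay above it with the 75th percentile, and 2 of 6 with quantile normalization. The members' differences between middle and apex ran from 0.17 to 0.46 with quantile normalization and from 0.47 to 0.60 with spike-in scaling. The share of all called genes that were higher in the base than in the apex was 55.1%, 63.2%, 73.5% and 93.6% under these 4 scalings in turn. The share of calls higher in the middle than in the apical turn was 63.3%, 58.3%, 81.3% and 95.7%, and the share higher in the base than in the middle turn was 44.2%, 55.1%, 61.8% and 89.6%.

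Over the 12 arrays the members varied together to different degrees. Pearson's r of the log2 signals ran from 0.527 for *Kcnj10* with *Esrrb* to 0.935 for *Slc12a2* with *Atp1b2*, and the lowest values of the other 5 genes were all with *Esrrb*. The arrays share slides within a turn and fall into 3 turns, so these values are given as a description. Genes with the most similar pattern were sought among 13866 genes with 3 or more probes and at least 1 probe well above background on all 12 arrays. Closest to *Kcnj10* were *Mpdu1* (0.99), *Fam69a* (0.989) and *Spg7* (0.987), and to *Slc12a2* *Katna1* (0.989), *Slc31a2* (0.983) and *Gas2* (0.979). *Bsnd* was followed by *Kcmf1* (0.97), *Spag7* (0.962) and *Akt1* (0.96). *Atp1b1* was followed by *Abcf2* (0.983), *Slc25a5* (0.983) and *Slc35c2* (0.981). For *Atp1b2* these were *4833439L19Rik* (0.973), *Car12* (0.971) and *Tacr3* (0.96), and for *Esrrb* *Ppp1cc* (0.956), *Fam92a* (0.952) and *Dars* (0.93). None of these 18 genes is in the lists of potassium genes, but listed genes with fewer than 3 probes could not enter the search. *Kcne1*, *Kcnj16*, *Gjb2* and *Gjb6* have 1 probe each, and *Kcnj13*, *Fxyd3*, *Fxyd6* and *Gja1* have 2. The other members were left out of the search as well.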

How the data were processed

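Total RNA of each turn was labeled with cyanine 3 by the whole transcriptome kit and hybridized to single-color Agilent SurePrint G3 Mouse Exon arrays. The deposited files hold fluorescence intensities that the authors extracted with Agilent Feature Extraction 10.7.3.1. The processed signal has its background subtracted and is not normalized between arrays, and the deposited value table holds the same intensities (greatest relative difference 0). Probe positions are on mm9.

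In R 4.3.3 (data.table, version 1.17.8), 7914 of 180880 spots were left out as controls, and 622 others that carried a flag on any array. Arrays were scaled to a 75th percentile of 640.8, log2 transformed and averaged over repeated spots and then over the probes of a gene name. Turns were compared with limma 3.58.1 (lmFit and eBayes on all 12 arrays, Benjamini-Hochberg over all 19505 genes or 165865 probes), and a gene was called at an adjusted p under 0.05. The precision of a value rests on 4 arrays. The steps were tested on simulated data.

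The genes named are the 6 members, the listed potassium genes and cell type markers, and the 3 genes most similar to each member. A few genes of the lists are not reported here, and the counts leave them out. Members and lists were chosen with earlier results of these data known. The alternatives were quantile, median and spike-in scaling, normexp background correction (offset 50), 16 added before log2, the median of probes, probes well above background only, spots with a flag kept, the deposited value table, only the turns compared, a replicate block, trend and robust moderation, the methods' one-way analysis of variance, and leaving out each array.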

Additional observations from a re-analysis of the deposited data

How the results depend on the processing

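Under the settings other than leaving out an array, the differences of the 6 members kept their direction and their side of the threshold in 222 cases, lost the call in 5 and gained it in 4. The direction turned in 3, all in base against middle: quantile normalization gave -0.024 for *Atp1b1* and -0.022 for *Atp1b2*, and scaling to the spike-in probes gave 0.131 for *Esrrb*. Quantile normalization also turned the change of *Atp1b2* minus *Atp1b1* between base and middle to 0.003. With scaling to the spike-in probes 5 members were called in base against middle in place of 1, 2 members passed a 2-fold difference in place of none, and of the listed potassium genes 18 were higher and 2 lower in the base than in the apex in place of 11 and 5. Of all 19505 genes, that scaling called 6954 higher in base against middle in place of 1800. In base against apex it called 13393 higher and 917 lower in place of 4209 and 3436. When each array was left out in turn, the members called ranged from 5 to 6 in base against apex, from 3 (without apical array 3) to 6 in middle against apex, and from 1 to 2 (without middle array 4) in base against middle. The called probes ranged from 41 to 45, the listed potassium genes called higher from 10 to 11 and lower from 5 to 5, and members with a 2-fold difference from 0 to 0. The change of *Atp1b2* minus *Atp1b1* ranged from -0.031 to 0.084 in base against apex, from 0.014 to 0.109 in middle against apex and from -0.091 to 0.025 in base against middle. The cause of these changes was not tested. The sample number of the labels does not state an animal. Deviations from the turn means correlated at 0.095 on average between arrays of the same number (12 pairs, -0.037 to 0.227) and at -0.031 between others, and 8 of 12 arrays correlated best with their own number. With the replicate block 6, 6 and 1 members were called in the 3 comparisons, and 12 listed genes were higher and 5 lower in the base than in the apex. For the dim *Bsnd* the difference between base and apex was 0.64 with the processed signal and 0.39 with normexp background correction. It was 0.81 with quantile normalization and 1.05 with scaling to the spike-in probes.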
